A study of Mus musculus with 17 samples.

Results

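Immediate early genes were described in the lungs of mice with and without a rhabdomyosarcoma and with and without an infused myeloid cell therapy. The 10 genes, Fos, Fosb, Jun, Junb, Egr1, Nr4a1, Dusp1, Ier2, Atf3 and Zfp36, were found by their symbols among the 18262 genes of the deposited expression table. All 10 were listed once and all 10 passed the minimum for testing, as did 10284 genes in all. The data were bulk RNA sequencing of 16 lungs of C57BL/6 mice, 4 in each of 4 groups, and of 1 cell product. Tumor-bearing mice had received 500000 cells of M3-9-M ffluc-mCherry, a mouse rhabdomyosarcoma line, in the gastrocnemius muscle. Treated mice received 8000000 IL12-GEMys, myeloid cells engineered to secrete interleukin 12, intravenously, and their lungs were taken 3 days later. For mice with a tumor this treatment fell on day 12 after inoculation, and their lungs, treated or not, were taken on day 15. The groups were tumor-bearing with IL12-GEMys (tumor_GEMy), tumor-bearing untreated (tumor_untreated), naive with IL12-GEMys (naive_GEMy) and naive untreated (naive_untreated). The cell product was C57BL/6 bone marrow after lentiviral transduction, a step in which SCF, FLT3L and IL-6 were also used.

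No group received myeloid cells without interleukin 12, so cell infusion and the cytokine cannot be told apart. The labels do not say whether the 4 libraries of a group are 4 mice, and p-values then measure only the spread from library to library, which may be technical. In their descriptions the tumor-bearing lungs carried the digit 2 in every treated library and the digit 1 in every untreated one, so the digit cannot be told apart from treatment. Letters follow the digit (NC, BL, TR and TL in treated libraries, BL, NC, TL and BR in untreated ones), and what digit and letters mark is not stated. Lungs held between 27566839 and 36815051 assigned reads. Whole lung holds many cell types, and more cells of a type cannot be told apart from more RNA per cell. Lung epithelial markers summed to between 38914 and 61940 reads per 1000000 in the 16 lungs, against 17.6 in the product, where Sftpa1, Sftpb, Sftpd, Scgb3a2 and Nkx2-1 were at 0.

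Immediate early genes are transcribed within minutes of a stimulus without new protein synthesis, through kinases that act on factors already bound at their promoters, such as SRF and CREB. Their products include the FOS and JUN proteins, which pair to form the transcription factor AP-1, and feedback proteins that end the signal or destroy short-lived messages. In lung they are known to respond to growth factors, stretch, inflammation and also to the handling of tissue before it is frozen, and their messages are short-lived.

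The 250 bases upstream of the start were available for 8 of the 10 genes (RefSeq, GRCm38.p6, the mm10 build), all except Egr1 and Ier2. The stretches of Nr4a1, Dusp1 and Junb are shown because these genes fell with treatment in tumor-bearing mice, and that of Fos because it is the best known member of the family. Each is given 5′ to 3′ on the strand of its gene, and capitals mark matches, on either strand, to the CRE (TGACGTCA), its core TGACG, the TATA box (TATAAA) and the EGR site (GCGNGGGCG).
Nr4a1, chr15:101266596-101266845, plus strand: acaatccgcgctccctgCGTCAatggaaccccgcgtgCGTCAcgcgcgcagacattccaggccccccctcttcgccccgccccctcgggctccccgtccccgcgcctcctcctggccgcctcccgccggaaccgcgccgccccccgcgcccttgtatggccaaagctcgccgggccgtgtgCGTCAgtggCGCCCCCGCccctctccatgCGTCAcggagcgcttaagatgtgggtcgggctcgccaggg
Dusp1, chr17:26508473-26508722, minus strand: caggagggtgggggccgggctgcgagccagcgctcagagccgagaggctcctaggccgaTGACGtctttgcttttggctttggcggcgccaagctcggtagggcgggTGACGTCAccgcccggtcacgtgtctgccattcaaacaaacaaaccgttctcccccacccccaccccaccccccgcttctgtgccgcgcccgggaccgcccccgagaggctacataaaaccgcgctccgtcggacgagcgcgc
Junb, chr8:84978749-84978998, minus strand: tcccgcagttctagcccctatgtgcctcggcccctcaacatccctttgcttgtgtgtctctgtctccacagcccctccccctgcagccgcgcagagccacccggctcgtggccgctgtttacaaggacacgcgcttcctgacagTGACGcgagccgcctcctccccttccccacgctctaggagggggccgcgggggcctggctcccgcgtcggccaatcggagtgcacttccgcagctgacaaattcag
Fos, chr12:85473640-85473889, plus strand: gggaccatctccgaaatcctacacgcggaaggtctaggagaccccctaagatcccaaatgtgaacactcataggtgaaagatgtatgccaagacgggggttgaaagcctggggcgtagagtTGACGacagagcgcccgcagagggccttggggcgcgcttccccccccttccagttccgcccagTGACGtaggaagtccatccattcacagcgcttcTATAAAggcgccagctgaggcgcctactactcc
The CRE is the element that CREB and ATF proteins bind. Its core TGACG occurred in 6 of the 8 stretches (Fos, Fosb, Junb, Nr4a1, Dusp1 and Atf3), and in 24.0% of 14271 promoters of the same length. Nr4a1 held 4 cores, the nearest at -40 to -36 from the start. The whole CRE, which contains the core, was found in Dusp1 alone, at -143 to -136, and in 2.42% of all promoters. The EGR site was found in Fosb, Nr4a1 and Zfp36 and in 7.76% of all promoters. The TATA box was found in Fos and in 7.93% of all, and the CArG box, which SRF binds, in Zfp36 and in 1.17% of all. The AP-1 site TGANTCA was in 0 of the 8 stretches and in 5.14% of all promoters. A match of letters is a description and shows no binding. Sites further upstream, and the promoters of Egr1 and Ier2, were not searched, so a gene without a match here may hold one elsewhere.

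Levels are FPKM, fragments per 1000 bases and 1000000 assigned reads, where the length is the whole span of the gene with introns. Compared per 1000 bases of spliced length (for Zfp36, 2790 bases in the annotation used, longer than its listed span of 2445), Jun was the most abundant member in naive_untreated lungs at 91.6 reads per 1000000. Dusp1 followed at 71.5, then Zfp36 at 47.4, Ier2 at 43.5, Egr1 at 39.7, Nr4a1 at 36.0 and Junb at 33.6. Fos stood at 21.8, Atf3 at 8.42 and Fosb at 2.63. Atf3 varied most across the 16 lungs, 5.97 times between the lowest and the highest library in FPKM, and Jun least, 1.53 times. Every member had at least 195 reads in every lung.

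**Figure D1:**
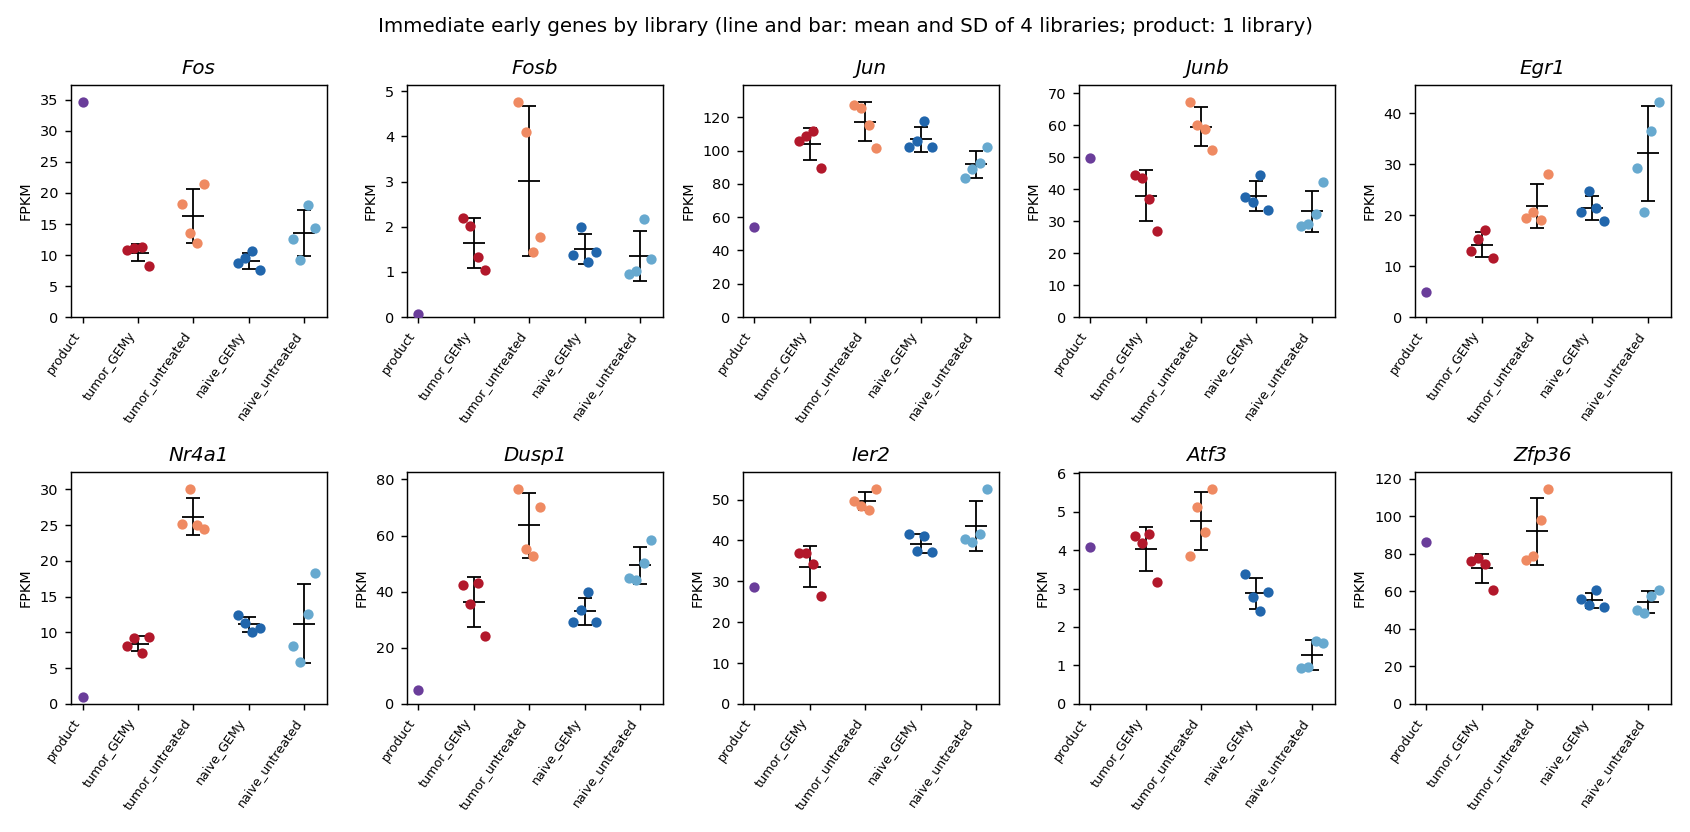
Level of each of the 10 immediate early genes (y axis, FPKM, from 0) in each library of the cell product and the 4 lung groups (x axis). Points are libraries, and the line and bar are the mean and SD of 4 lung libraries. For Nr4a1 the 4 tumor_untreated libraries sit between 24.5 and 30.1 FPKM, above all 12 other lungs.

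The FOS subunits of AP-1 differed from each other. Fos, located at chr12:85473890-85477274 on the plus strand of mm10, had 10.7, 11.1, 11.4 and 8.29 FPKM in tumor_GEMy lungs, against 18.2, 13.5, 11.9 and 21.4 FPKM in tumor_untreated lungs. It had 8.68, 9.46, 10.7 and 7.54 FPKM in naive_GEMy lungs, against 12.6, 9.22, 18.0 and 14.4 FPKM in naive_untreated lungs. Treated and untreated lungs did not overlap in tumor-bearing mice, and in naive mice 1 untreated library lay among the treated ones. Fosb (chr7:19302696-19310045, minus strand), a close relative of Fos, had 2.20, 2.02, 1.34 and 1.03 FPKM in tumor_GEMy lungs, against 4.76, 4.09, 1.44 and 1.77 FPKM in tumor_untreated lungs. It had 1.38, 2.00, 1.22 and 1.44 FPKM in naive_GEMy lungs, against 0.950, 1.01, 2.17 and 1.28 FPKM in naive_untreated lungs. Both pairs overlapped, and 2 tumor_untreated libraries stood apart as the highest.

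Of the JUN subunits, Jun was the steadiest member and Junb was highest in untreated tumor-bearing lungs. Jun (chr4:95049036-95052222, minus strand) had 106, 109, 112 and 89.6 FPKM in tumor_GEMy lungs, against 127, 125, 115 and 102 FPKM in tumor_untreated lungs. It had 102, 105, 118 and 102 FPKM in naive_GEMy lungs, against 83.3, 88.6, 92.5 and 102 FPKM in naive_untreated lungs. These ranges all met or overlapped. The antisense gene Junos overlaps Jun in GENCODE M21, and Gm44710 overlaps Zfp36 likewise. Whether counting used the strand is not given in the sources used here, so reads of these partners cannot be told apart. Junb (chr8:84976909-84978748, minus strand), a JUN protein often found to restrain growth, had 44.3, 43.4, 37.0 and 27.0 FPKM in tumor_GEMy lungs, against 67.3, 60.1, 58.7 and 52.3 FPKM in tumor_untreated lungs. It had 37.7, 35.9, 44.6 and 33.5 FPKM in naive_GEMy lungs, against 28.6, 29.0, 32.4 and 42.3 FPKM in naive_untreated lungs. Every tumor_untreated library was above all 12 other lungs.

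Egr1 and Nr4a1 were highest in different groups. Egr1 (chr18:34861207-34864956, plus strand), a zinc finger transcription factor, had 12.9, 15.4, 17.0 and 11.5 FPKM in tumor_GEMy lungs, against 19.5, 20.6, 19.1 and 28.1 FPKM in tumor_untreated lungs. It had 20.6, 24.7, 21.4 and 18.9 FPKM in naive_GEMy lungs, against 29.3, 20.7, 36.5 and 42.2 FPKM in naive_untreated lungs. Its 4 lowest lungs were the tumor_GEMy ones and its 3 highest were naive_untreated. Nr4a1 (chr15:101266846-101274794, plus strand), an orphan nuclear receptor also known as Nur77, had 8.13, 9.20, 7.05 and 9.33 FPKM in tumor_GEMy lungs, against 25.1, 30.1, 25.0 and 24.5 FPKM in tumor_untreated lungs. It had 12.4, 11.3, 10.1 and 10.6 FPKM in naive_GEMy lungs, against 8.05, 5.85, 12.6 and 18.3 FPKM in naive_untreated lungs. The tumor_untreated libraries stood well apart from all others, and naive_untreated lungs spread on both sides of naive_GEMy lungs.

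Atf3, a stress-induced member of the ATF and CREB family, was lowest in naive_untreated lungs. Atf3 (chr1:191170297-191183333, minus strand) had 4.36, 4.17, 4.41 and 3.17 FPKM in tumor_GEMy lungs, against 3.85, 5.12, 4.46 and 5.59 FPKM in tumor_untreated lungs. It had 3.39, 2.77, 2.42 and 2.92 FPKM in naive_GEMy lungs, against 0.936, 0.952, 1.65 and 1.59 FPKM in naive_untreated lungs. The 4 naive_untreated libraries were the 4 lowest of the 16 lungs.

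The feedback genes Dusp1 and Zfp36, and also Ier2, were among the more abundant members. Dusp1 (chr17:26505591-26508472, minus strand), a phosphatase that switches off MAP kinases, had 42.5, 35.5, 43.0 and 24.1 FPKM in tumor_GEMy lungs, against 76.6, 55.1, 52.9 and 70.3 FPKM in tumor_untreated lungs. It had 29.3, 33.3, 39.8 and 29.3 FPKM in naive_GEMy lungs, against 44.7, 44.2, 50.2 and 58.4 FPKM in naive_untreated lungs. Treated lungs lay below untreated ones without overlap in naive and in tumor-bearing mice. Ier2 (chr8:84661331-84662852, minus strand), a growth factor-inducible nuclear protein, had 36.9, 36.8, 34.1 and 26.4 FPKM in tumor_GEMy lungs, against 49.7, 48.5, 47.5 and 52.5 FPKM in tumor_untreated lungs. It had 41.5, 37.4, 41.0 and 37.1 FPKM in naive_GEMy lungs, against 40.3, 39.5, 41.7 and 52.6 FPKM in naive_untreated lungs. Treated lungs lay below untreated ones in tumor-bearing mice and overlapped them in naive mice. Zfp36 (chr7:28376784-28379228, minus strand), also called tristetraprolin, binds cytokine messages and speeds their decay. It had 76.1, 77.6, 74.3 and 60.5 FPKM in tumor_GEMy lungs, against 76.4, 78.9, 97.9 and 115 FPKM in tumor_untreated lungs. It had 56.1, 52.8, 60.5 and 51.6 FPKM in naive_GEMy lungs, against 50.0, 48.4, 57.5 and 60.7 FPKM in naive_untreated lungs. All tumor_untreated libraries exceeded all naive lungs.

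The lung with a distant tumor and no treatment was compared with the untreated naive lung. Of the 10 genes, 6 rose (Fosb, Jun, Junb, Nr4a1, Atf3 and Zfp36), 1 fell (Egr1) and 3 did not pass the test (limma on log2(FPKM + 0.5), adjusted p under 0.05). Of all 10284 genes tested, 44.0% passed, 16.9% as higher and 27.2% as lower, so a rise was the less common call in this comparison. The median difference of the 10 was 0.55 on the log2 scale, against -0.05 over all tested genes. Atf3 averaged 4.76 ± 0.764 FPKM in tumor_untreated lungs and 1.28 ± 0.391 FPKM in naive_untreated lungs (SD, n = 4 each), a log2 difference of 1.57 ± 0.15 (SE; limma adjusted p = 9.79e-07). Nr4a1 rose by 1.30 ± 0.23 (limma adjusted p = 0.000422) and Junb by 0.85 ± 0.15 (limma adjusted p = 0.000439). Zfp36 rose by 0.75 ± 0.12 (limma adjusted p = 0.000216) and Jun by 0.35 ± 0.09 (limma adjusted p = 0.00618). The groups did not overlap for Junb, Nr4a1, Atf3 and Zfp36, 4 of the 10, a state that 14.1% of all tested genes reached as higher.

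The remaining members gave smaller or less stable differences between untreated tumor-bearing and untreated naive lungs. Fosb averaged 3.02 ± 1.66 FPKM in tumor_untreated lungs and 1.35 ± 0.565 FPKM in naive_untreated lungs (SD, n = 4 each), a log2 difference of 0.84 ± 0.30 (limma adjusted p = 0.0326). This rise was no longer called when the fit held only these 2 groups (limma adjusted p = 0.079) and without naive_untreated replicate 1, 2 or 4 or tumor_untreated replicate 1 or 2 (limma adjusted p of 0.0899, 0.082, 0.0626, 0.102 and 0.0958 in that order). Egr1 averaged 21.8 ± 4.25 FPKM in tumor_untreated lungs and 32.2 ± 9.31 FPKM in naive_untreated lungs, a log2 difference of -0.52 ± 0.19 (limma adjusted p = 0.0323). The fall of Egr1 was not called when naive_untreated replicate 3 or 4 or tumor_untreated replicate 1, 2 or 3 was left out, with limma adjusted p between 0.0643 and 0.119, and under 4 other settings (limma adjusted p between 0.0504 and 0.175). Dusp1 (log2 difference 0.36, 95% interval -0.01 to 0.72), Fos (0.25, -0.16 to 0.66) and Ier2 (0.19, -0.03 to 0.42) did not pass. The p-values adjusted by limma were 0.105, 0.3 and 0.15 in the same order.

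**Figure D2:**
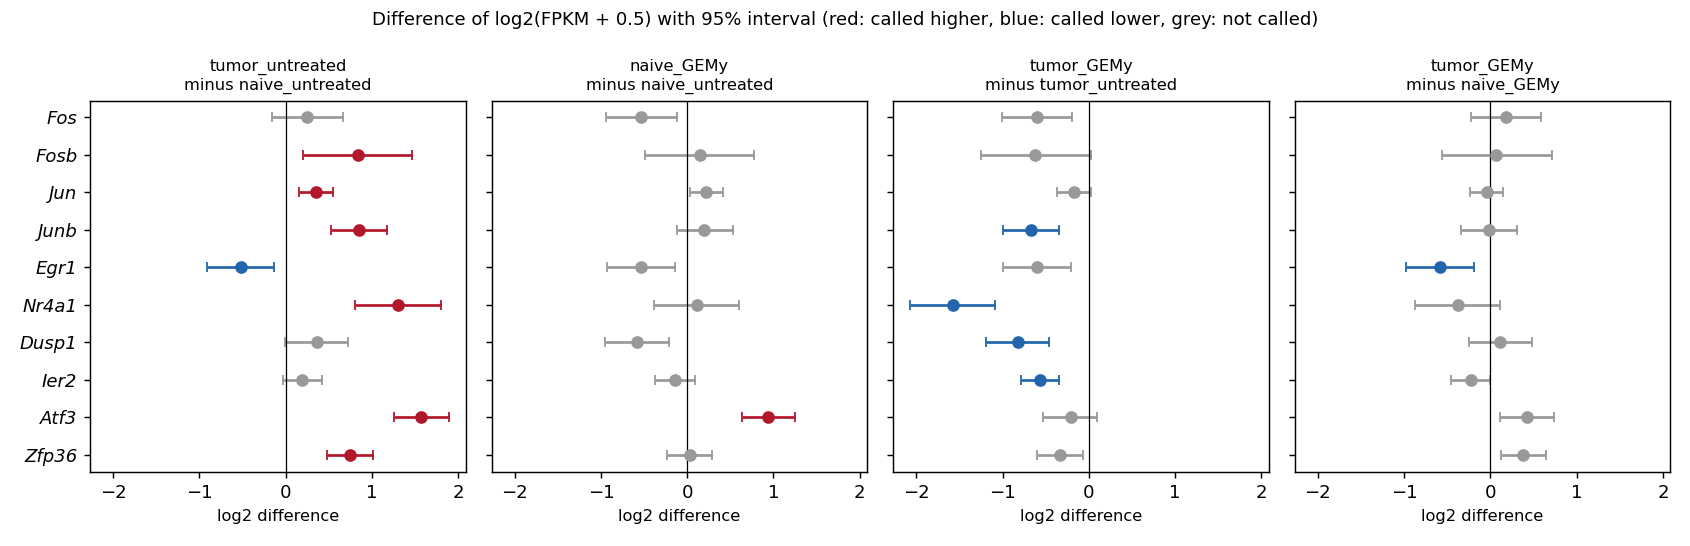
Difference of log2(FPKM + 0.5) (x axis) for each gene (y axis) in 4 comparisons, with the 95% interval of the limma fit. Red and blue mark genes called higher and lower, grey those not called. Atf3 has the largest rise, 1.57, in untreated tumor-bearing lungs, and Nr4a1 the largest fall, -1.58, with IL12-GEMys in tumor-bearing mice.

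In tumor-bearing mice, treated lungs held lower levels of several immediate early genes than untreated ones. This comparison shares the 4 tumor_untreated libraries with the one against naive_untreated lungs, so a high value in them adds to both, in opposite directions. Of the 10 genes 4 fell (Nr4a1, Dusp1, Junb and Ier2) and 0 rose at an adjusted p under 0.05, also 0 at an unadjusted p under 0.05, where 7 were lower. Of all tested genes 6.73% passed, 3.0% as higher and 3.72% as lower. All 10 differences were below 0, as were 55.7% of those of all tested genes. The median was -0.60 on the log2 scale, against -0.01 over all tested genes. Nr4a1 averaged 8.43 ± 1.07 FPKM in tumor_GEMy lungs and 26.2 ± 2.61 FPKM in tumor_untreated lungs (SD, n = 4 each), a log2 difference of -1.58 ± 0.23 (SE; limma adjusted p = 0.000691). Dusp1 averaged 36.3 ± 8.81 and Ier2 33.6 ± 4.95 FPKM in tumor_GEMy lungs, against 63.7 ± 11.6 and 49.6 ± 2.19 FPKM in tumor_untreated lungs (SD, n = 4 each). The log2 difference was -0.82 ± 0.17 for Dusp1 (limma adjusted p = 0.00766) and -0.57 ± 0.11 for Ier2 (limma adjusted p = 0.00387).

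Junb averaged 37.9 ± 7.98 FPKM in tumor_GEMy lungs and 59.6 ± 6.16 FPKM in tumor_untreated lungs (SD, n = 4 each), a log2 difference of -0.67 ± 0.15 (limma adjusted p = 0.0133). When the fit held only these 2 groups, the calls of Dusp1 and Junb were lost (limma adjusted p = 0.0646 and 0.0622), those of Nr4a1 and Ier2 were not. Treated lungs were below untreated ones without overlap for 6 of the 10 (Fos, Junb, Egr1, Nr4a1, Dusp1 and Ier2), a state that 4.8% of all tested genes reached as lower. Fos (-0.60, 95% interval -1.01 to -0.19, limma adjusted p = 0.0812) and Egr1 (-0.60, -0.99 to -0.21, limma adjusted p = 0.0675) missed the threshold. The differences of Fosb (-0.62), Zfp36 (-0.33), Atf3 (-0.21) and Jun (-0.17) did not pass either, with limma adjusted p between 0.129 and 0.477. Library tumor_GEMy 4 was the lowest of the 16 lungs for Junb, Egr1, Dusp1 and Ier2. Without it the 4 called genes stayed called, and leaving out any other single lung left 4 or 5 genes called.

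In naive mice, Atf3 rose with IL12-GEMys. It averaged 2.88 ± 0.403 FPKM in naive_GEMy lungs and 1.28 ± 0.391 FPKM in naive_untreated lungs (SD, n = 4 each), a log2 difference of 0.94 ± 0.15 (limma adjusted p = 0.000513). Atf3 was 1 of 10 called, where 7.1% of all tested genes passed, 5.6% as higher and 1.5% as lower, and 10.1% were higher without overlap. Dusp1 averaged 32.9 ± 4.96 FPKM in naive_GEMy lungs and 49.4 ± 6.59 FPKM in naive_untreated lungs (SD, n = 4 each), without overlap, a state that 8.1% of all tested genes reached as lower, and its log2 difference of -0.58 missed the threshold (95% interval -0.95 to -0.21, limma adjusted p = 0.054). It passed under 8 of 28 alternatives (limma adjusted p between 0.00641 and 0.155 over all). Egr1 (-0.53, limma adjusted p = 0.105) and Fos (-0.53, limma adjusted p = 0.128) did not pass, nor did Jun (0.22), Junb (0.20), Fosb (0.15), Nr4a1 (0.11), Zfp36 (0.03) and Ier2 (-0.14), with limma adjusted p between 0.187 and 0.919. Without naive_untreated replicate 2, Egr1 and Fos passed (limma adjusted p = 0.013 and 0.042).

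Whether the change with IL12-GEMys differed between tumor-bearing and naive mice was tested as an interaction, the treated minus untreated difference in tumor-bearing mice minus that in naive mice. It passed as lower for Nr4a1 (-1.69 ± 0.33, SE; limma adjusted p = 0.0069), Atf3 (-1.15 ± 0.21, limma adjusted p = 0.00485) and Junb (-0.87 ± 0.22, limma adjusted p = 0.0256). These were 3 of 10, where 6.26% of all tested genes passed, 1.04% as higher and 5.22% as lower. For Nr4a1 the change was -1.58 in tumor-bearing mice and 0.11 in naive mice. For Atf3 it was -0.21 in tumor-bearing mice and 0.94 in naive mice. For Junb it was -0.67 in tumor-bearing mice and 0.20 in naive mice. The Junb call was lost without naive_GEMy replicate 1 or 3, naive_untreated replicate 1 or 2 or tumor_untreated replicate 3 (limma adjusted p of 0.0508, 0.0517, 0.0634, 0.0611 and 0.0515 in that order) and with no minimum level (limma adjusted p = 0.0515). Jun (-0.40, limma adjusted p = 0.0895) and Ier2 (-0.43, limma adjusted p = 0.114) missed the threshold, and Dusp1, which fell with treatment in tumor-bearing mice and missed the threshold in naive mice (-0.58, limma adjusted p = 0.054), had an interaction of -0.24 (95% interval -0.76 to 0.28, limma adjusted p = 0.632).

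Treated tumor-bearing lungs were also compared with both kinds of naive lungs, which share these treated libraries. Against naive_GEMy lungs, Egr1 alone fell, to 14.2 ± 2.47 FPKM in tumor_GEMy lungs, against 21.4 ± 2.42 FPKM in naive_GEMy lungs (log2 difference -0.58 ± 0.19, limma adjusted p = 0.0482). This was 1 of 10, where 13.2% of all tested genes passed, 4.03% as higher and 9.17% as lower, and the call was lost under 16 of 28 alternatives (limma adjusted p between 0.015 and 0.13 over all). These included leaving out any 1 of the 4 naive_GEMy libraries, tumor_GEMy replicate 1, 2 or 4, naive_untreated replicate 1 or 3, or tumor_untreated replicate 2 or 3, with limma adjusted p between 0.052 and 0.13. Egr1, Nr4a1 and Ier2 were lower without overlap, a state that 15.1% of all tested genes reached.

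Against naive_untreated lungs, 5 of the 10 genes passed in tumor_GEMy lungs, where 39.3% of all tested genes did, 13.6% as higher and 25.6% as lower. Atf3 (1.36 ± 0.15, SE; limma adjusted p = 4.32e-06) and Zfp36 (0.41 ± 0.12, limma adjusted p = 0.0156) rose. Egr1 (-1.12 ± 0.19, limma adjusted p = 0.000254), Dusp1 (-0.47 ± 0.17, limma adjusted p = 0.0422) and Ier2 (-0.37 ± 0.11, limma adjusted p = 0.0121) fell. Nr4a1 (-0.28, 95% interval -0.77 to 0.21), Junb (0.19, -0.14 to 0.51), Fos (-0.34, -0.75 to 0.07), Jun (0.18, -0.02 to 0.38) and Fosb (0.22, -0.41 to 0.85) did not pass. The Dusp1 call was lost in 10 of 28 alternatives, among them leaving out naive_untreated replicate 1, 3 or 4, tumor_GEMy replicate 2 or 4, or naive_GEMy replicate 2 (limma adjusted p between 0.0518 and 0.143), and the replicate number as a block (limma adjusted p = 0.0543). That of Ier2 was lost under median-of-ratios scaling (limma adjusted p = 0.0851) and that of Zfp36 without naive_untreated replicate 2 (limma adjusted p = 0.051).

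The cell product was 1 library with 31111312 reads, so its values carry no replicate error, and intervals are exact 95% Poisson intervals that cover counting error only. Fos reached 34.6 FPKM in the product (3647 reads, 33.5 to 35.8), above all 16 lungs, which held 7.54 to 21.4 FPKM. Fosb, by contrast, had 17 reads in the product, 0.0743 FPKM (0.0433 to 0.119), against 0.950 to 4.76 FPKM in lungs. The product was above every lung for one FOS subunit and below every lung for the other. Nr4a1 had 0.962 FPKM in the product (0.844 to 1.09), against 5.85 to 30.1 FPKM in lungs, Dusp1 had 4.95 FPKM (4.50 to 5.43), against 24.1 to 76.6, and Egr1 had 5.00 FPKM (4.60 to 5.42), against 11.5 to 42.2. The lung means were 14.8, 9.20 and 4.48 times the product level for these 3 genes. Jun was also below all lungs, with 54.2 FPKM in the product, against 83.3 to 127 FPKM. Junb at 49.6, Ier2 at 28.6, Atf3 at 4.08 and Zfp36 at 86.4 FPKM lay within the lung range. A product level above all lungs was seen in 42.9% of the 10284 genes and one below all lungs in 39.2%, so the position of 1 gene outside the lungs was common. Summed over the 10 genes the product held 730.5 reads per 1000000, less than each of the 16 lungs.

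**Figure D3:**
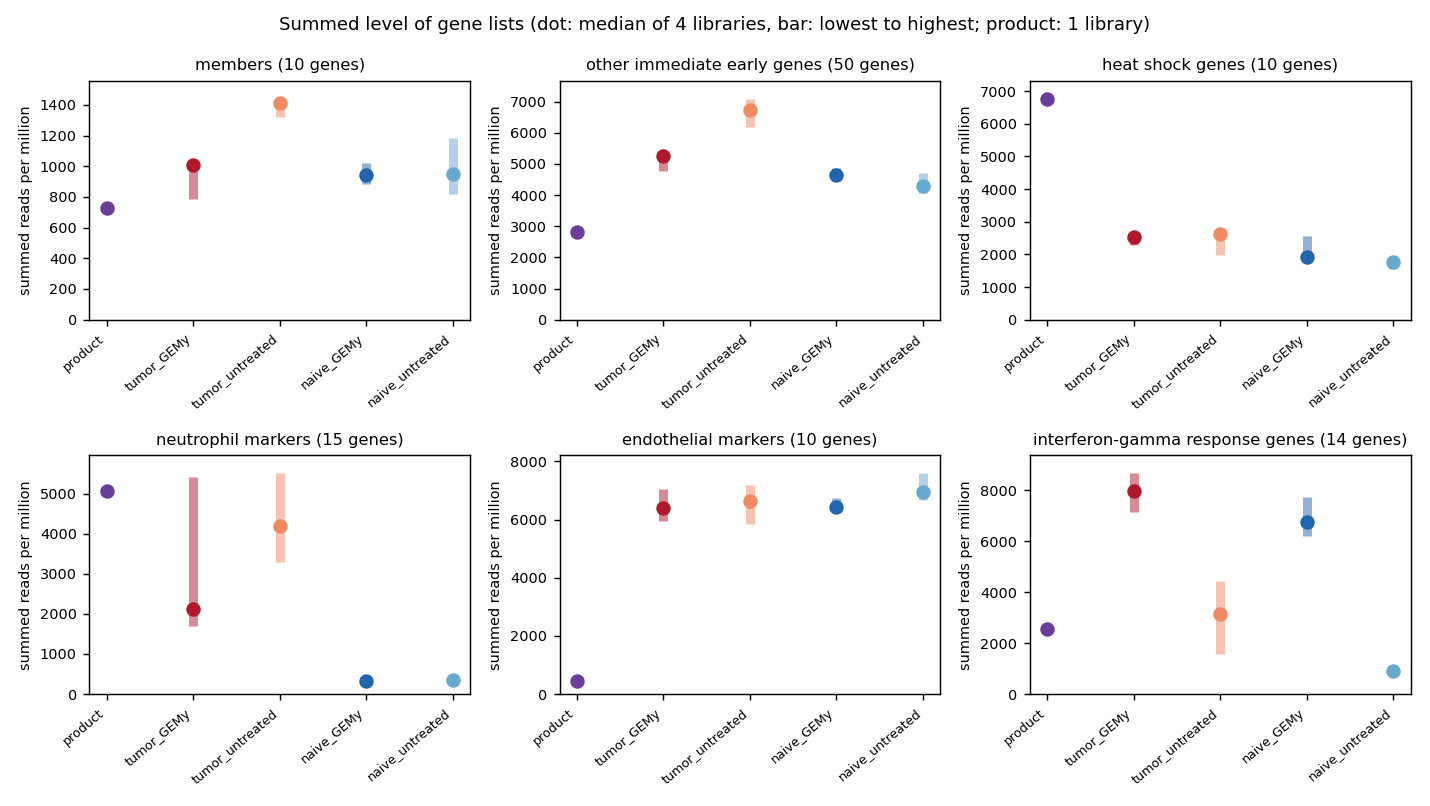
Summed level of 6 gene lists (y axes, reads per 1000000, from 0) in the cell product and the 4 lung groups (x axis). Dots are medians of 4 libraries and bars run from the lowest to the highest. The 10 immediate early genes (panel "members") sum to 1319.3 to 1441.0 in tumor_untreated lungs, above every other lung.

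The summed level of the 10 genes was 787.3 to 1011.8 reads per 1000000 in tumor_GEMy lungs, against 1319.3 to 1441.0 in tumor_untreated lungs. It was 882.5 to 1019.4 in naive_GEMy lungs, against 816.9 to 1182.7 in naive_untreated lungs. The tumor_untreated group was above all others and the remaining 3 groups overlapped. A wider list of 50 further immediate early genes, with 49 tested, was also highest in tumor_untreated lungs. This list was chosen with earlier results of these data known, so it is no independent support. It summed to 4760.8 to 5386.1 reads per 1000000 in tumor_GEMy lungs, against 6172.6 to 7092.7 in tumor_untreated lungs. In naive mice the sums were 4552.2 to 4855.7 with IL12-GEMys, against 4074.3 to 4708.8 without. For this list tumor_GEMy lungs were above all naive_untreated lungs and overlapped naive_GEMy lungs.

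In untreated tumor-bearing against untreated naive lungs, 32 of the 49 further immediate early genes rose and 4 fell, where 16.9% of all tested genes rose and 27.2% fell. The median log2 difference of the list was 0.47. Per1, a clock gene that is also induced by glucocorticoids, averaged 14.7 FPKM in tumor_untreated lungs and 3.88 FPKM in naive_untreated lungs (log2 difference 1.78, limma adjusted p = 1.43e-06). Cebpd, a leucine zipper factor of the acute phase, rose by 1.67 (limma adjusted p = 4.01e-05), Klf4, a zinc finger factor, by 1.39 (limma adjusted p = 5.34e-08) and the AP-1 subunit Fosl2 by 1.14 (limma adjusted p = 8.29e-08). Nr4a3 and Nr4a2, the close relatives of Nr4a1, rose by 0.82 and 0.42 (limma adjusted p = 2.41e-06 and 0.00043). Both reached the minimum of 0.5 FPKM only in tumor_untreated lungs (0.530 to 0.816 FPKM for Nr4a3, 0.513 to 0.752 FPKM for Nr4a2). They were thus tested only because they were high there, and these calls, counted among the 32, are no support for a rise. The 4 that fell were Edn1, Ier3, Zfp36l1 and Dusp4, by 0.87, 0.66, 0.54 and 0.29. Edn1 encodes the vessel-constricting peptide endothelin-1, and Zfp36l1 is a relative of Zfp36 with the opposite direction.

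With IL12-GEMys in tumor-bearing mice, 0 of the 49 further genes rose and 19 fell, where 3.0% of all tested genes rose and 3.72% fell. With only the compared groups in the fit 9 of the 49 passed. The median log2 difference of the list was -0.32. At an unadjusted p under 0.05, limma gave 2 higher and 27 lower. Plk2, a stress-induced kinase, averaged 15.4 FPKM in tumor_GEMy lungs and 27.9 FPKM in tumor_untreated lungs (log2 difference -0.82, limma adjusted p = 0.00387). Egr3, a relative of Egr1, averaged 1.42 FPKM in tumor_GEMy lungs and 2.88 FPKM in tumor_untreated lungs (-0.80, limma adjusted p = 0.00196). Fosl2 fell by 0.61 (limma adjusted p = 0.000348), Nr4a3 by 0.38 and Nr4a2 by 0.35 (limma adjusted p = 0.0112 and 0.00901). Nr4a3 and Nr4a2 passed the minimum for testing only through the tumor_untreated lungs. Their falls, counted among the 19, are therefore no support for a fall, and the same limit holds for Nr4a3 in the interaction. In naive mice 3 of the 49 rose with IL12-GEMys and 2 fell, where 5.6% of all tested genes rose and 1.5% fell. The 5 calls became 2 to 10 when 1 lung was left out, 13 with only the compared groups and 23 with array weights. These were Csrnp1 (0.69), Myc (0.48), Dusp6 (0.25), Dusp4 (-0.25) and Zfp36l1 (-0.23). The interaction passed as lower for 17 of the 49 and as higher for 0 (1 higher and 29 lower at an unadjusted p under 0.05 in limma), among them Egr3 (-1.14) and Cebpb (-1.31), where 5.22% of all tested genes passed as lower and 1.04% as higher. Against naive_GEMy lungs 11 of the 49 rose and 5 fell in tumor_GEMy lungs, where 4.03% of all tested genes rose and 9.17% fell. Against naive_untreated lungs 24 rose and 6 fell in tumor_GEMy lungs, where 13.6% of all tested genes rose and 25.6% fell. The 24 include Nr4a3, which was under the minimum in both of these groups and was tested only through the tumor_untreated lungs. Its call is no support for a rise here.

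**Figure D4:**
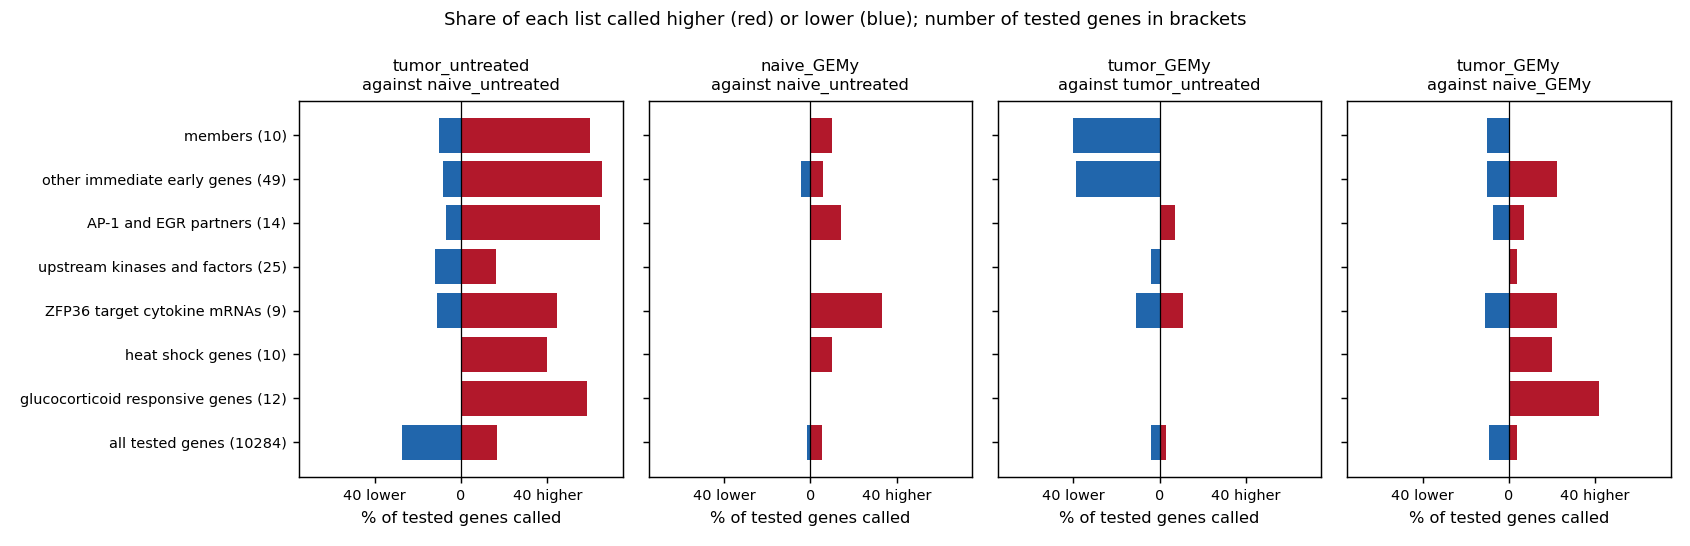
Share of the tested genes of each list (rows, number tested in brackets) called higher (red, right) or lower (blue, left) in 4 comparisons. Of the 10 immediate early genes ("members") and the 49 further ones, 6 and 32 were called higher in untreated tumor-bearing lungs, where 16.9% of all tested genes were. With IL12-GEMys in tumor-bearing mice 4 and 19 were called lower, where 3.72% of all tested genes were, and 6 and 30 were not called. The 32 and the 19 include Nr4a2 and Nr4a3, which were tested only through the tumor_untreated lungs.

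Partners, upstream factors and targets of these genes were described from further lists. Of 25 tested kinases and factors upstream of immediate early genes, 4 rose and 3 fell in tumor_untreated against naive_untreated lungs. There 16.9% of all tested genes rose and 27.2% fell. With IL12-GEMys in tumor-bearing mice 0 of the 25 rose and 1 fell, where 3.0% of all tested genes rose and 3.72% fell. The counts for this list were near or under these shares. The member of that list called in both was Srf, which encodes the serum response factor that drives many immediate early genes. It averaged 7.50 ± 0.438 FPKM in tumor_GEMy lungs and 9.26 ± 0.822 FPKM in tumor_untreated lungs (SD, n = 4 each; log2 difference -0.28, limma adjusted p = 0.0348). Against naive_untreated lungs, with 7.39 ± 0.710 FPKM, it rose by 0.31 in tumor_untreated lungs (limma adjusted p = 0.00479). Of 14 tested partners of AP-1 and EGR proteins, 9 rose and 1 fell in untreated tumor-bearing lungs, beside 16.9% and 27.2% of all tested genes. They were led by Batf2 (1.69), an interferon-induced leucine zipper protein, and Maff (0.95). With IL12-GEMys in tumor-bearing mice, 1 of these 14 rose, Batf2 (1.62, limma adjusted p = 0.000693), and 0 fell, beside 3.0% and 3.72% of all tested genes.

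Messages that ZFP36 is known to destabilise included 9 tested cytokine and related genes. Ier3 is in this list and also in the wider immediate early list. In untreated tumor-bearing against untreated naive lungs 4 of the 9 rose and 1, Ier3, fell, where 16.9% of all tested genes rose and 27.2% fell. Il1b was at 27.8 FPKM in tumor_untreated lungs and 2.65 FPKM in naive_untreated lungs (3.15, limma adjusted p = 5.96e-08), and Ccl3 was higher by 2.11. With IL12-GEMys in tumor-bearing mice Il1b fell to 10.0 FPKM in tumor_GEMy lungs, against 27.8 FPKM in tumor_untreated lungs (-1.42, limma adjusted p = 0.000858). Il10 was called higher (0.94, limma adjusted p = 4.68e-06), at 0.601 FPKM in tumor_GEMy lungs, against 0.0714 FPKM in tumor_untreated lungs. Il10 reached the minimum of 0.5 FPKM only in tumor_GEMy lungs. It was thus tested only because it was high there, and its call is no support for a rise. Il1b is also abundant in neutrophils.

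Other cell types and states moved with these results, and their part in them was not tested. The shares of all tested genes were 16.9% higher and 27.2% lower in tumor_untreated against naive_untreated lungs. They were 5.6% and 1.5% in naive_GEMy against naive_untreated lungs, and 3.0% and 3.72% in tumor_GEMy against tumor_untreated lungs. Of 14 tested neutrophil markers 11 rose and 0 fell in tumor_untreated against naive_untreated lungs, and 0 rose and 4 fell in tumor_GEMy against tumor_untreated lungs. The summed neutrophil markers were 1706.8 to 5425.5 reads per 1000000 in tumor_GEMy lungs, against 3296.1 to 5514.5 in tumor_untreated lungs, and 239.4 to 427.3 in naive_GEMy lungs, against 284.9 to 419.7 in naive_untreated lungs. The product held 5072.4, and no marker was at 0 in all libraries of a lung group. Monocyte and macrophage markers rose for 9 of 11 in tumor_untreated against naive_untreated lungs and for 6 of 11 in naive_GEMy against naive_untreated lungs, and in tumor_GEMy against tumor_untreated lungs 1 rose and 2 fell. All 14 interferon-gamma response genes rose in tumor_untreated against naive_untreated lungs, and 12 of 14 rose in tumor_GEMy against tumor_untreated lungs. The whole list of 14 also rose in naive_GEMy against naive_untreated lungs.

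T and NK cell markers rose for 8 of 10 in tumor_untreated against naive_untreated lungs, for 6 of 10 in naive_GEMy against naive_untreated lungs and for 3 of 10 in tumor_GEMy against tumor_untreated lungs (0 to 6 over the alternatives). All tested genes rose for 16.9%, 5.6% and 3.0% in that order. The T and NK cell markers summed to 428.0 to 638.4 reads per 1000000 in tumor_GEMy lungs, against 189.2 to 431.6 in tumor_untreated lungs, and to 308.6 to 503.9 in naive_GEMy lungs, against 91.9 to 141.6 in naive_untreated lungs. Markers of the lung's own tissue and of B cells were lower in tumor_untreated than in naive_untreated lungs, a comparison where 27.2% of all tested genes fell. There 11 of 12 lung epithelial markers fell and summed to 38913.5 to 50533.4 reads per 1000000 in tumor_untreated lungs, against 56919.3 to 61939.8 in naive_untreated lungs. Of 10 smooth muscle and fibroblast markers 6 fell, with sums of 1737.0 to 2366.3 in tumor_untreated lungs, against 2656.1 to 3214.1 in naive_untreated lungs. In the same comparison 5 of 6 tested B cell markers fell, with sums of 169.2 to 307.9 in tumor_untreated lungs, against 306.1 to 514.3 in naive_untreated lungs. All 6 tested cardiac muscle markers fell, with sums of 269.6 to 536.0 in tumor_untreated lungs, against 503.1 to 681.6 in naive_untreated lungs. With IL12-GEMys in tumor-bearing mice 1 marker of these 4 lists passed, a lung epithelial one that rose, where 6.73% of all tested genes passed.

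Signs of stress and sampling were given by further lists. In tumor_untreated against naive_untreated lungs 16.9% of all tested genes rose and 27.2% fell. With IL12-GEMys in tumor-bearing mice 3.0% rose and 3.72% fell, so a count of 0 of 10 or 12 genes was near the share. Heat shock genes rose for 4 of 10 in tumor_untreated against naive_untreated lungs, led by Hspa1a at 19.9 FPKM in tumor_untreated lungs and 4.85 FPKM in naive_untreated lungs, and for 0 of 10 with IL12-GEMys in tumor-bearing mice, where 0 fell. Of 12 glucocorticoid responsive genes, of which Per1, Sgk1 and Errfi1 are also in the wider immediate early list, 7 rose in untreated tumor-bearing lungs, and 0 rose and 0 fell with IL12-GEMys in tumor-bearing mice. Hemoglobin genes took 0.225 to 1.78% of reads in tumor_GEMy lungs and 0.404 to 4.15% in tumor_untreated lungs. They took 0.0735 to 0.252% in naive_GEMy lungs and 0.143 to 1.15% in naive_untreated lungs. Endothelial markers summed to 5963.7 to 7040.7 reads per 1000000 in tumor_GEMy lungs, against 5858.2 to 7179.9 in tumor_untreated lungs, and 0 of 10 passed (limma). In tumor_untreated against naive_untreated lungs, which held 6671.9 to 7600.2, 3 of the 10 fell, among them Kdr (-0.50) and Cdh5 (-0.28), and 0 rose. This count was near the 27.2% of all tested genes that fell there. The interval from death to freezing is not given in the sources used here.

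The 10 genes did not follow a single profile. Over the 16 lungs, which share groups and library-wide shifts, 40 of the 45 pairs of members had a Pearson correlation of log2(FPKM + 0.5) above 0, with a median of 0.542, given here as a description. Fos and Dusp1 (r = 0.888) and Jun and Junb (0.869) were the most alike, and Egr1 and Atf3 the least (-0.497). After the group means were removed, 44 of the 45 pairs were above 0 with a median of 0.464, and Egr1 with Atf3 stood at 0.700. Outside the list, the genes most like the mean profile of the 10 were Sik1 (0.898), Slc25a25 (0.896), Nr4a2 (0.885), Rhob (0.882), Btg2 (0.865) and Midn (0.861), over n = 16 lungs. Nr4a2 was tested, and so ranked, only through the tumor_untreated lungs, where the mean profile was also highest. Its place in this ranking is therefore no support for likeness. For single members the most similar outside gene was Egr3 for Nr4a1 (0.904), Slfn2 for Atf3 (0.963), Socs3 for Zfp36 (0.949) and Midn for Junb (0.936).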

How the data were processed

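Bulk RNA sequencing of 16 mouse lung libraries (4 groups of 4) and 1 cell product was analysed from the values that the authors deposited as FPKM for 18262 genes. Per the submitters' processing notes, the tools were STAR 2.7.3a and Partek and the build mm10; the annotation, settings and strand handling are not given in the sources used here. FPKM times the listed genomic span summed to the same total in every library, so the span was the length used. Lungs held 27566839 to 36815051 assigned reads and the product 31111312, recovered from the smallest step of the deposited values; 86.7 to 88.4% of lung values under 1000 reads were whole within 0.02. All 17 library columns were mapped by their labels.

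The deposited FPKM were turned into log2(FPKM + 0.5) and 10284 genes were kept that reached 0.5 FPKM in 4 or more lungs. A model with a mean for each of the 4 lung groups was fitted to the 16 lungs in limma 3.58.1 (R 4.3.3), with the trend and robust options of its moderation. Tests were 2-sided, with Benjamini-Hochberg adjustment over all tested genes within each comparison and a threshold of 0.05. The fold changes understate changes of genes near the added 0.5. The procedure was tested on simulated data. Comparisons that share a group are not independent.

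The members and all gene lists were chosen with earlier results of these data known. From the wider lists, genes were named as the 2 largest called changes of a list in a comparison; Klf4, Fosl2, Nr4a2, Nr4a3, Dusp4, Dusp6, Edn1, Ier3 and Zfp36l1 were chosen after their values were seen. Genes most like the members were ranked by Pearson correlation over 16 lungs, without predicted gene models. Alternatives were pseudocounts of 0.1 and 1, no minimum or 1 FPKM, reads per 1000000, median-of-ratios scaling, quantile normalization, only the compared groups, the replicate number as a block, plain moderation, array weights and leaving out each lung, and, chosen after seeing the data, voom on recovered reads. Promoter sequences are from RefSeq (GRCm38.p6). Plots used matplotlib 3.10.9 (python 3.11.15).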

Additional observations from a re-analysis of the deposited data

Results flagged for a closer look

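The change with IL12-GEMys differed between tumor-bearing and naive mice for Nr4a1 (-1.69), Atf3 (-1.15) and Junb (-0.87) on the log2 scale, by the interaction test in limma (adjusted p of 0.0069, 0.00485 and 0.0256 in that order). In 3 of 40 sets of 4 libraries, 1 library stood apart from the other 3 by more than Dixon's 95% critical value for 4 samples. These were Egr1 in tumor_untreated replicate 4 (28.1 FPKM), Nr4a1 in tumor_untreated replicate 2 (30.1 FPKM) and Ier2 in naive_untreated replicate 4 (52.6 FPKM). Chance alone marks about 1 in 20 sets.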

How the results depend on the processing

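Over 60 results (10 genes in 6 comparisons) and their alternatives, 1549 of 1670 values kept direction and side of the threshold, 51 lost the call, 42 gained it and 28 turned direction, all of the last for differences that were not called. The turned values, with the cause not tested, were as follows. With quantile normalization the interaction was 0.021 for Egr1 and 0.021 for Fos, Junb in tumor_GEMy against naive_GEMy lungs was 0.014, and Zfp36 in naive_GEMy against naive_untreated lungs -0.069. In tumor_GEMy against naive_GEMy lungs, array weights gave 0.011 for Jun and 0.149 for Junb, and median-of-ratios scaling 0.030 and 0.055. Array weights gave 0.188 for Nr4a1 in tumor_GEMy against naive_untreated lungs. Leaving out 1 lung gave -0.209 to 0.127 (Egr1 interaction), -0.219 to 0.091 (Fos interaction), and in tumor_GEMy against naive_GEMy lungs -0.050 to 0.222 (Fosb), -0.078 to 0.027 (Jun) and -0.099 to 0.136 (Junb). In naive_GEMy against naive_untreated lungs it gave -0.148 to 0.374 (Nr4a1) and -0.019 to 0.089 (Zfp36).

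The number of the 10 genes called in tumor_GEMy against tumor_untreated lungs was 4, and 2 with only the compared groups (4 to 5 leaving out 1 lung). For the interaction it was 3, and 5 with array weights (2 to 4 leaving out 1 lung). In naive_GEMy against naive_untreated lungs it was 1, but 3 with array weights and 2 with only the compared groups, quantile normalization, reads per 1000000 or voom (1 to 3 leaving out 1 lung). In tumor_GEMy against naive_GEMy lungs it was 1, but 0 with no minimum, reads per 1000000 or the replicate number as a block, 2 with plain moderation or voom, 3 with array weights and 4 with only the compared groups (0 to 2 leaving out 1 lung); at an unadjusted p under 0.05 limma gave 2 higher and 2 lower there. In tumor_untreated against naive_untreated lungs it was 7 (5 to 8 over all alternatives), and in tumor_GEMy against naive_untreated lungs 5 (4 to 7).

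Deviations of same-numbered libraries from their group means correlated with r from -0.313 to 0.594. Of 24 pairs, 12 were above 0.1, and in 11 the library correlated best with its own number, 5 of these for number 3. Since not every pair was above 0.1 and no label says what the number marks, the libraries were not treated as paired. The leading numbers of the column labels run through a library of each group in turn within each replicate number. Whether libraries of the same number shared a processing step is not stated and was not tested. With the replicate number as a block, 7 genes were called in tumor_untreated against naive_untreated lungs, 4 in tumor_GEMy against tumor_untreated lungs and 3 in the interaction. The block ended the calls of Egr1 in tumor_GEMy against naive_GEMy lungs (limma adjusted p = 0.0606), leaving 0, and of Dusp1 in tumor_GEMy against naive_untreated lungs (0.0543).

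Calls over all tested genes moved by more than 1.5 times as follows. The interaction had 644 (1881 with array weights, 383 to 1256 leaving out 1 lung) and naive_GEMy against naive_untreated lungs 730 (2051 with array weights, 1188 with only the compared groups, 472 to 1006 leaving out 1 lung). The count was 1357 in tumor_GEMy against naive_GEMy lungs (2733 with array weights, 641 to 1892 leaving out 1 lung) and 692 in tumor_GEMy against tumor_untreated lungs (2358 with array weights, 210 with only the compared groups, 452 to 913 leaving out 1 lung). Scaling moved the median difference of all genes to at most -0.108, with reads per 1000000 in tumor_GEMy against naive_untreated lungs. Fosb, with 195 to 1160 reads, had the fewest reads of the 10 genes.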
